A study of Saccharomyces cerevisiae with 40 samples.

Results

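Of the 9275 probe sets for yeast sequences on this array, 2443 had no gene in the platform annotation used here, and 1094 of these were bright enough to be followed. They were the non-control probe sets with no symbol and a mean log2(signal + 16) of at least 5 over all 40 arrays, which corresponds to a signal of about 16. No listed gene does not mean that none exists: the annotation leaves these probe sets unnamed, and they are given by probe set identifier only. The files hold no probe sequence or position for them, so no sequence is shown. The comparison set was the 5639 probe sets with exactly 1 gene symbol above the same floor, and 7012 probe sets were tested in all.

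The series followed RNA in Saccharomyces cerevisiae when NMD2 was switched on in cells that lacked it. Every culture came from strain HFY1400, in which NMD2 is disrupted by HIS3. The GAL-NMD2 groups carried a plasmid that expresses NMD2 from the GAL1 promoter, which galactose turns on, and the nmd2D groups carried an empty URA3 vector. Both were sampled at 0, 10, 20, 40 and 60 min, with 4 replicates per group, which the series calls independent. The series design names raffinose medium, to which galactose was then added, whereas the growth protocol of every sample names galactose. NMD2 came from a plasmid and another gene's promoter, so its dose is not that of the chromosomal gene. RNA came from whole cultures, in which less RNA per cell and fewer cells holding an RNA cannot be told apart.

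Nonsense-mediated mRNA decay (NMD) destroys mRNAs whose translation stops early. Its core factors are the helicase Upf1 and its partners Upf2, the product of NMD2, and Upf3. In yeast its known targets include mRNAs with upstream reading frames, unspliced introns or frameshifts, transcripts of pseudogenes, and many RNAs from outside annotated genes. Arrays of this period carried probe sets for such extra sequences beside those for annotated genes: short or doubtful reading frames, RNA genes, transposon sequences and transcripts seen in tag libraries. The sources used here do not say which of the 1094 is of which kind.

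The unnamed probe sets were dim. Over all levels, 44.8% of the 2443 reached the floor, against 86.7% of the 6504 with 1 symbol. Among those above it the median level was 6.17 on the log2 scale for unnamed probe sets (quartiles 5.43 and 8.10) and 7.29 for those with 1 symbol (6.28 and 8.59). The unnamed set thus joined a large dim group to a smaller bright one. At the floor itself, 4720_at and 7933_at lay just inside with means of 5.0001 and 5.0008, and 7466_at and 7469_at just outside with 4.9982 and 4.9983. The 3 brightest were 9183_s_at, 8987_at and 8668_at, with mean signals of 4311, 3488 and 3437. None of these 3 was called between the strains at 60 min: 9183_s_at read 4509 ± 834 with the GAL-NMD2 plasmid and 3977 ± 552 without it (log2 0.17 with SE 0.16, adjusted p = 0.656 by limma).

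Before the members are described, the strains and arrays were checked. NMD2 rose in GAL-NMD2 from 1038 ± 177 (SD, n = 4) at 0 min to 1654 ± 212 at 60 min, whereas nmd2D read 895 ± 34.9 and then 889 ± 132. The strain difference at 60 min was log2 0.89 (SE 0.15, limma adjusted p = 2.51e-05). The 4 GAL-NMD2 values at 60 min, from 1363.3 to 1865.3, all lay above the 4 nmd2D values, which reached 1013.2. That probe set also read signal in the disrupted host. The median signal of an array lay between 61.2 and 86. At 60 min it was 65.6 ± 3.74 for the GAL-NMD2 arrays against 81.7 ± 3.18 for nmd2D. Every strain difference below is therefore relative to how the arrays were scaled, and counts of calls after centring each array on its median are given where they differ. As a yardstick, 17 probe sets of 14 genes known as NMD substrates were 11 lower and 0 higher in GAL-NMD2 at 60 min, and their median was log2 -0.95. That list was drawn up with results of these arrays known and is no independent evidence of direction. EST3, a telomerase subunit, was among them at log2 -1.66 (SE 0.17, limma adjusted p = 4.67e-09, for 4116_at).

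Arrays of 1 strain with the same replicate number are called a culture here, although the labels give only the number. One culture stood apart in 2 unnamed probe sets, picked out after their values were seen. In GAL-NMD2 replicate 2 the probe set 3953_at read 0.4, 0.6, 0.6, 0.6 and 0.3 at the 5 times, whereas the 35 arrays of the other 7 cultures read from 1600.1 to 5115.3. For 3952_at the same culture read from 0 to 1.1 and the others from 179.9 to 628.1. No other probe set of the 7012, named or unnamed, had all 5 arrays of 1 culture 4-fold or more above or below all 35 others on the log2(signal + 16) scale. The low values were there at 0 min already, and the strain difference of 3953_at, log2 -2.37 at 60 min with SE 1.71, was not called (limma adjusted p = 0.513). The array of the same culture at 20 min also had a median signal of 84.3, the other 3 of its group reaching 67.9. Without this culture 14 unnamed probe sets were called between the strains at 20 min, 123 at 40 min and 217 at 60 min, against 4, 145 and 214 with it. Leaving out only its 20 min array, chosen after seeing the data, gave 13 unnamed lower and 0 higher at 20 min. Those with 1 symbol were then 63 lower and 25 higher. The shares lower, 1.19% and 1.12%, were close, so the larger count at 20 min was not particular to unnamed probe sets.

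Strain differences in unnamed probe sets passed the test from 20 min on. Most were lower levels in GAL-NMD2 as the arrays were deposited, but not at 60 min once each array was centred on its median. At 0 and 10 min limma called 0 of the 1094, lower or higher (0.0143% of all tested were higher at each time). At an unadjusted p under 0.05 there were 14 at 0 min and 7 at 10 min, fewer than the 54.7 of 1094 that a rate of 0.05 gives. The fit with the replicate number as a block also called 0 at both times. An absence of calls does not show that the strains were alike. At 20 min 4 were lower (0.366%, against 0.499% of all 7012 tested) and 0 higher (0.0285% of all tested). At 40 min 139 were lower (12.7%, against 8.36% of all tested) and 6 higher (0.548%, against 0.656%). At 60 min 201 were lower (18.4%, against 12.3% of all tested) and 13 higher (1.19%, against 0.471%). After median centring 0 were called at 20 min (0.242% of all tested were lower and 0.0713% higher), 86 were lower and 34 higher at 40 min (5.28% and 3.34% of all tested), and 104 were lower and 107 higher at 60 min (6.66% and 6.42% of all tested). Of the 107 higher, 91 had the letter f before _at in their identifier. The 879 unnamed probe sets without that letter were 97 lower and 16 higher after centring, so they stayed mostly lower. Centring moved the median strain difference of all tested probe sets at 60 min from log2 -0.04 to 0.22. Quantile normalization gave 98 lower and 18 higher at 40 min, and 113 and 12 at 60 min (6.37% and 1.21% with 1 symbol). Cyclic loess gave 126 lower and 13 higher at 60 min (7.39% and 0.869% with 1 symbol). Of these 3 rescalings, only median centring left lower calls no more frequent than higher ones at 60 min. Without centring, among probe sets with 1 symbol, 30, 410 and 611 were lower at the last 3 times, which is 0.532%, 7.27% and 10.8%. The shares were not tested against each other, since probe sets are not replicates and some measure the same RNA.

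**Figure D1:**
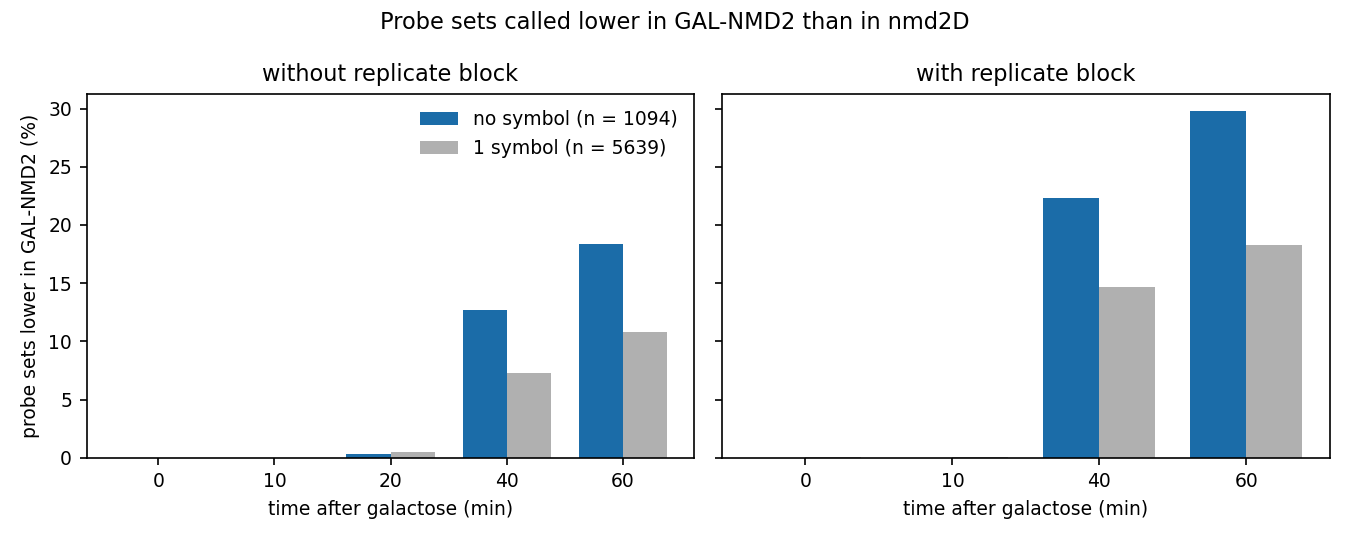
Bars give the share of probe sets called lower in GAL-NMD2 than in nmd2D (vertical axis, percent) at each time (horizontal axis, min), without the replicate block on the left and with it, 20 min left out, on the right. At 60 min without the block the unnamed probe sets (blue) stand at 18.4% and those with 1 symbol (grey) at 10.8%.

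Treating the replicate number as a block raised these counts. It gave 0 called at 0 min (0.0428% of all tested were lower and 0.114% higher) and at 10 min (0.0428% and 0.0856%). It gave 244 lower and 48 higher at 40 min and 326 and 50 at 60 min. The shares of all tested in that fit were 16.3% lower and 3.52% higher for 40 min, and 20.5% and 2.22% for 60 min. The number of calls at 20 min rested on single cultures: it was 14 without GAL-NMD2 replicate 2, 2 without GAL-NMD2 replicate 4 or nmd2D replicate 1, and 0 without GAL-NMD2 replicate 1 or nmd2D replicate 4.

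The change from 0 min was set between the strains as an interaction, that is the change in GAL-NMD2 minus the change in nmd2D. At an unadjusted p under 0.05 it gave 2 unnamed probe sets at 10 min and 23 at 20 min, fewer than the 54.7 that a rate of 0.05 gives. After adjustment it called 0 at both times (0.0143% of all tested were lower at 20 min), and at 10 min with the block too. It called 25 lower at 40 min (2.29%, against 1.63% of all tested) and 69 lower at 60 min (6.31%, against 4.22%), with 0 higher at either time (0.0143% of all tested at 60 min). After median centring there were 10 lower at 40 min (0.914%, against 0.956% of all tested) and 27 at 60 min (2.47%, against 1.81%), so the unnamed share was no longer the larger one at 40 min. With the replicate block and no centring these were 121 lower and 7 higher at 40 min (7.1% and 0.357% of all tested) and 180 lower and 0 higher at 60 min (10.2% and 0.0998%). Without nmd2D replicate 2 there were 7 at 40 min and 36 at 60 min, the fewest when any one culture was left out. Without GAL-NMD2 replicates 1, 2 or 3 or nmd2D replicates 3 or 4 there were 14, 12, 15, 16 and 11 at 40 min, and without GAL-NMD2 replicates 2 or 3 or nmd2D replicate 3 there were 45, 45 and 40 at 60 min. All 69 had changes by replicate number that did not overlap between the strains. The same held for all 296 of the 7012 tested that were called lower (4.22%), so it did not set the unnamed ones apart.

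Each strain was also set against its own 0 min level. From 0 to 60 min, 188 unnamed probe sets fell in GAL-NMD2 (17.2%, against 10.8% of all tested) and 2 rose (0.183%, against 1.25%). After median centring 116 fell and 20 rose in GAL-NMD2 (7.16% and 4.86% of all tested). In nmd2D 1 fell (0.0998% of all tested) and 1 rose (0.185%). With the replicate block it was 300 and 21 in GAL-NMD2 (19.5% and 5.18% of all tested) and 5 and 8 in nmd2D (1.14% and 0.956%). For the 69 with a called interaction at 60 min the median change was log2 -1.14 in GAL-NMD2 and 0.05 in nmd2D; these medians describe a set chosen on the same arrays.

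The calls built up over time. All 4 probe sets lower at 20 min were also lower at 40 and at 60 min. Of the 139 lower at 40 min, 131 were lower at 60 min, which is 94.2% of the former and 65.2% of the 201. Strain differences of those 201 had medians of log2 -0.10, -0.04, -0.38, -0.78 and -0.99 at the 5 times in order. The 611 with 1 symbol had medians of -0.10, -0.02, -0.34, -0.73 and -0.92. Choosing both sets by their calls at 60 min inflates the last value. Of the 201, 178 had no overlap between the strains, and of the 13 higher 10 had none. Among all tested, 767 of the 864 called lower and 23 of the 33 called higher had none (10.9% and 0.328% of all tested). At 40 min it was 126 of the 139 lower and 5 of the 6 higher. Over all tested it was then 537 of 586 and 31 of 46 (7.66% and 0.442%). Of the 201, 100 differed by 2-fold or more and 20 by 3-fold or more, on the log2(signal + 16) scale, which understates folds of dim probe sets. Whether called or not, 121 of the 1094 (11.1%) lay 2-fold or more lower at 60 min, against 259 of the 5639 (4.59%), and 0 and 13 lay 2-fold or more higher.

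The share of falls depended on how bright a probe set was. All tested probe sets were put into 5 classes of equal size by mean level, with bounds at 5.89, 6.77, 7.69 and 9.03 on the log2 scale. The dimmest class held 469 of the 1094 unnamed probe sets, and the others 190, 123, 130 and 182. At 60 min the unnamed probe sets lower in GAL-NMD2 made up 15.6%, 24.2%, 33.3%, 27.7% and 2.75% of these classes, from dim to bright. Those with 1 symbol made up 10.4%, 13.2%, 14.2%, 10.8% and 4.68%. The unnamed share was the higher one in the first 4 classes and the lower one in the brightest. In the brightest class 121 of the 182 unnamed probe sets had the letter f before _at, and 0 of these were lower. Of the 61 others 5 were lower (8.20%), above the 4.68% of all those with 1 symbol there, whatever their letter. The median strain difference was log2 -0.16, -0.25, -0.43 and -0.25 in the first 4 classes for unnamed probe sets and 0.32 in the brightest, against -0.10, -0.11, -0.09, -0.01 and 0.11 with 1 symbol. The standard error was no smaller for unnamed probe sets: its median in the middle class was 0.27, against 0.21 with 1 symbol. Weighting the 1-symbol shares to the class sizes of the unnamed probe sets gave 10.4% lower at 60 min, against the 18.4% observed. This weighting was made only for the arrays as deposited and without the replicate block. After median centring the unweighted shares were 9.51% unnamed and 5.87% with 1 symbol. Why the shares differed was not tested.

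**Figure D2:**
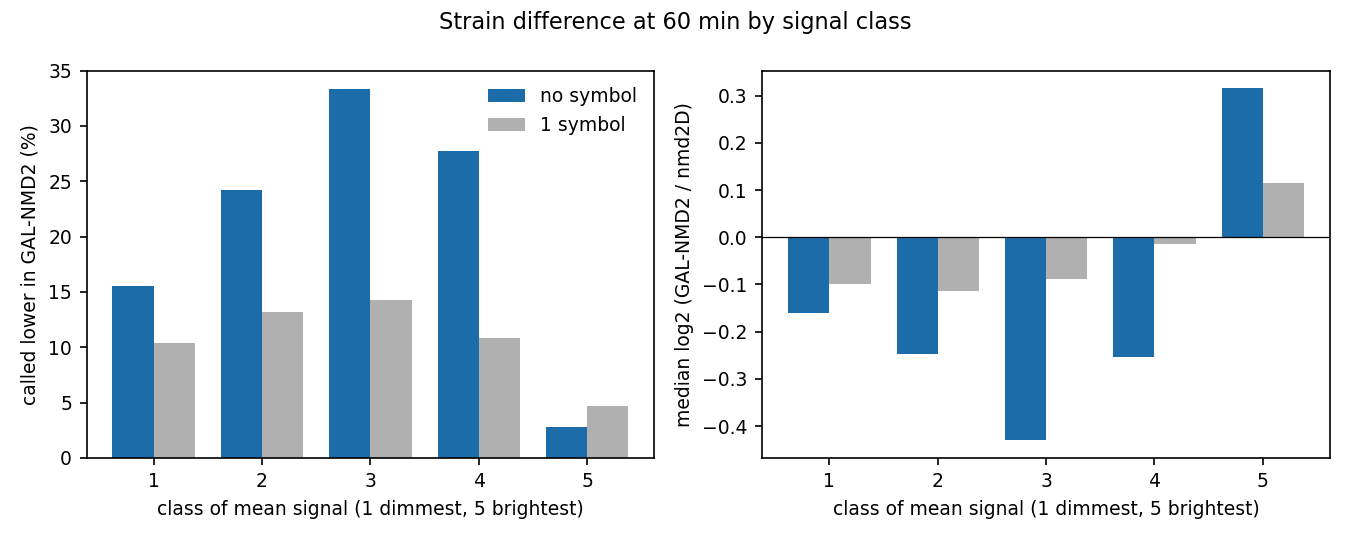
The left panel gives the share called lower in GAL-NMD2 at 60 min (percent) and the right panel the median log2 ratio of GAL-NMD2 to nmd2D, for 5 classes of mean signal from dim to bright. Unnamed probe sets (blue) reach 33.3% in class 3 against 14.2% with 1 symbol (grey), and their median turns from -0.43 there to 0.32 in class 5.

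The classes were also compared at 40 min and for the interaction. At 40 min the unnamed probe sets lower in GAL-NMD2 were 9.38%, 15.3%, 24.4%, 23.8% and 2.75% of the 5 classes, and those with 1 symbol 5.73%, 8.16%, 9.73%, 8.7% and 3.09%. For the interaction at 60 min the unnamed shares were 1.92%, 10.0%, 15.4%, 13.8% and 2.2%, against 1.65%, 3.95%, 5.14%, 5.45% and 1.69%. After median centring the unnamed shares lower at 60 min were 4.05%, 14.2%, 24.4%, 18.5% and 2.2% by class, against 3.52%, 6.98%, 8.52%, 6.91% and 2.34%. With the replicate block and no centring the unnamed shares lower at 60 min were 28.4%, 38.4%, 46.3%, 40.8% and 5.49%. Those with 1 symbol were then 19.6%, 22.2%, 22.6%, 18.9% and 7.12%. In classes 1 to 4 the unnamed share lower at 60 min was the larger one as deposited, with the block and after centring. For the interaction at 60 min this did not hold in class 1, where centring left 0.426% of the unnamed probe sets against 0.551% with 1 symbol.

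The members that fell most can be read array by array. The probe set 8112_at had the largest interaction at 60 min. In GAL-NMD2 it read 480.1, 492.5, 535.1 and 589.5 at 0 min and 57.2, 64.6, 75.6 and 96.1 at 60 min. In nmd2D it read 697.5, 406.1, 526.9 and 533.7 at 0 min and 598.1, 467.4, 578.3 and 556.6 at 60 min. Every GAL-NMD2 array at 60 min lay below every other of these, and the interaction was log2 -2.65 (SE 0.27, limma adjusted p = 3.97e-08). Its mean passed through 360 ± 77.7 at 20 min and 132 ± 40.2 at 40 min, where the strain difference was log2 -1.78 (SE 0.19, limma adjusted p = 3.24e-08).

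An earlier fall was that of 5512_at. In GAL-NMD2 it read 251.8, 222.7, 134.2 and 257.6 at 0 min, 67, 104.1, 80.6 and 123.4 at 20 min, and 28.3, 28.8, 25.4 and 28 at 60 min. In nmd2D it read 261.9, 223.4, 156.8 and 305.1 at 20 min and 312.2, 240.3, 134.5 and 395.1 at 60 min. The nmd2D values spread widely by replicate and replicate 3 was the lowest, but the strains did not overlap at 20, 40 or 60 min. The strain difference was log2 -1.20 at 20 min (SE 0.28, limma adjusted p = 0.0371), -2.22 at 40 min and -2.62 at 60 min (SE 0.28, limma adjusted p = 1.67e-08), and the interaction at 60 min was log2 -2.42 (SE 0.40, limma adjusted p = 0.000167).

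The third largest was 5509_at. Its GAL-NMD2 arrays read 512.1, 695.3, 413.7 and 917 at 0 min and 110.9, 178.7, 149.3 and 233.3 at 60 min, and its nmd2D arrays 606.9, 707.5, 558.2 and 768.6 at 60 min. The groups did not overlap at 60 min, and the interaction was log2 -2.03 (SE 0.37, limma adjusted p = 0.000673). By the same times 5515_at went from 384 ± 89.7 to 95.7 ± 25.2 in GAL-NMD2 and from 403 ± 91.7 to 417 ± 109 in nmd2D, and had an interaction of log2 -1.87 (SE 0.35, limma adjusted p = 0.000743).

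**Figure D3:**
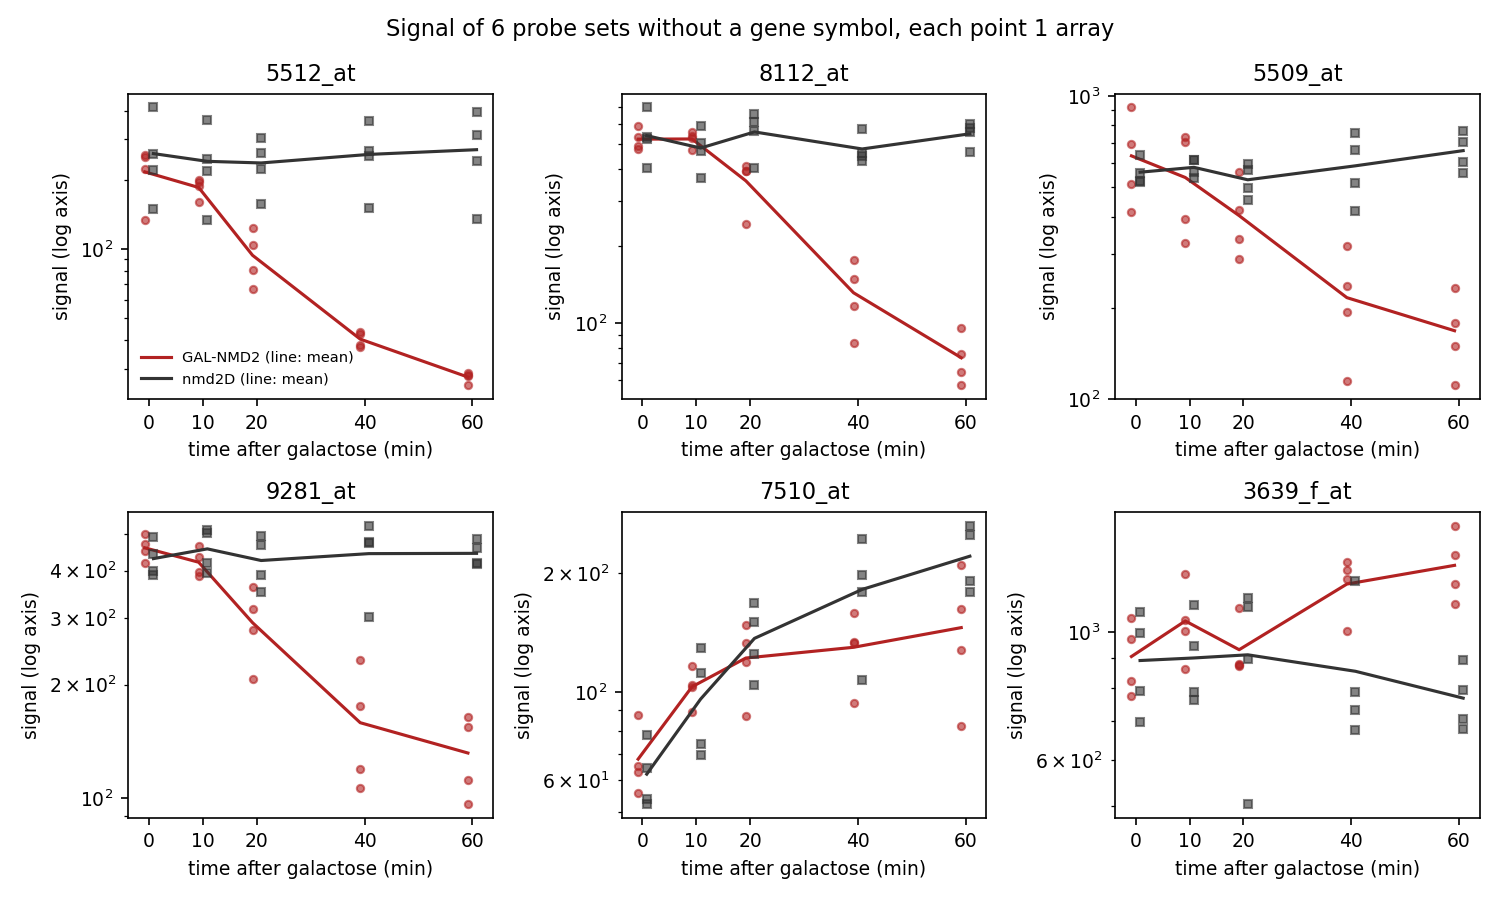
Signal on a log axis against time after galactose (min) for 6 unnamed probe sets; each point is 1 array, circles GAL-NMD2 and squares nmd2D, with lines through the means of 4. In the first 4 panels the GAL-NMD2 means fall and the nmd2D means stay near their starting level, 7510_at rises in both strains, and 3639_f_at is higher in GAL-NMD2 at 60 min.

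Replicates of 9281_at lay close together at 0 min. They spread more at 40 min, from 106.5 to 232.4 in GAL-NMD2 and from 301.3 to 525.3 in nmd2D. In GAL-NMD2 this probe set read 469.2, 419.6, 449.6 and 500.2 at 0 min and 96.7, 111.6, 154.9 and 164.1 at 60 min. In nmd2D it read 399.2, 442.3, 491.5 and 388.8 at 0 min and 418.4, 415.4, 459.5 and 484.6 at 60 min. All 4 GAL-NMD2 arrays at 60 min lay below 200 and all others at 0 and 60 min at 388.8 or above. The interaction was log2 -1.52 at 40 min (SE 0.27, limma adjusted p = 0.000818) and -1.76 at 60 min (SE 0.27, limma adjusted p = 4.99e-05).

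The dim probe set 10441_at reached the bottom of the scale. In GAL-NMD2 it read 52.5, 75.1, 60.5 and 44.5 at 0 min and 2.7, 10.3, 7.4 and 9.3 at 60 min, against 58.8, 75.9, 102.1 and 81.6 in nmd2D at 60 min. The interaction was log2 -1.63 (SE 0.29, limma adjusted p = 0.000412), on a scale where the 16 added to each signal limits how far a dim probe set can fall. The other 6 of the 12 largest falls were 8794_i_at, 2772_at, 5854_at, 8208_at, 10437_at and 9807_at, with interactions from log2 -1.94 to -1.69. In GAL-NMD2 at 60 min 8794_i_at averaged 12.4 ± 4.67 and 2772_at 21.3 ± 4.93, against 70.7 ± 31.3 and 155 ± 73.5 in nmd2D. Of 20 alternative fits, 10 lost the call of 2772_at (limma adjusted p = 0.0307), 11 that of 10437_at (limma adjusted p = 0.0429), 6 that of 8794_i_at and 4 that of 5854_at. With the replicate block the limma adjusted p was 4.01e-05 for 2772_at, 6.88e-07 for 10437_at, 3.53e-06 for 8794_i_at and 2.18e-08 for 5854_at. The calls of 8112_at, 5512_at, 5509_at, 5515_at, 9281_at, 9807_at, 8208_at and 10441_at were kept in all 20 fits.

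At 40 min the rule also named 2407_at and 5454_at. The GAL-NMD2 arrays read 50.5, 110.8, 43.6 and 84.8 for 2407_at and the nmd2D arrays 251.9, 435.4, 220.6 and 322.5, a log2 difference of -1.89 with SE 0.38 (adjusted p = 0.000624 by limma). For 5454_at the values were 41.2, 46.5, 38.6 and 73 against 188.1, 265, 120.1 and 321.9 (log2 -1.81, SE 0.36, limma adjusted p = 0.000593). In both the strains did not overlap although replicates of 1 strain differed by over 2-fold.

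Besides 5512_at, 3 probe sets made up the calls at 20 min. The probe set 9830_at read 26.2, 38.7, 36.7 and 27.9 in GAL-NMD2 against 57.1, 89.9, 77.8 and 77.8 (log2 -0.92 with SE 0.19, adjusted p = 0.0139 by limma). The probe set 7505_at read 209.3, 278.9, 274.9 and 332.2 against 535.1, 376.1, 370.8 and 525.9 (log2 -0.69 with SE 0.15, adjusted p = 0.0233 by limma). For 7518_at the arrays read 62.6, 63.3, 104.1 and 72 against 130.6, 132.8, 130.2 and 121.6 (log2 -0.68, SE 0.16, limma adjusted p = 0.04). None of the 4 overlapped between the strains at 20 min. Of all 7012 tested, 35 were called lower there and 33 of these did not overlap either (0.471% of all tested). By 60 min the mean of 7505_at was 143 ± 3.67 with the plasmid and 409 ± 40.4 without it, a difference of log2 -1.42 with SE 0.15 (adjusted p = 1.77e-08 by limma). Of 20 alternative fits 11 lost the 20 min call of 5512_at, 9 that of 9830_at, 6 that of 7505_at and 12 that of 7518_at.

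Without NMD2, over the hour in galactose, 2 unnamed probe sets changed. In nmd2D 7510_at rose from 52.3, 53.8, 64.4 and 78.2 at 0 min to 179.6, 190.5, 248.9 and 262.9 at 60 min (log2 1.59, SE 0.22, limma adjusted p = 2.95e-05). It rose in GAL-NMD2 too, from 67.8 ± 14 to 146 ± 54.1 (log2 0.90, SE 0.22, limma adjusted p = 0.00508). The interaction of log2 -0.70 was not called (limma adjusted p = 0.365), but it was in the fit with the block (limma adjusted p = 0.0172). In contrast 11174_at fell in nmd2D from 523.2, 391.1, 595.4 and 613.6 to 176.6, 266.6, 270.2 and 276.7 (log2 -1.05, SE 0.23, limma adjusted p = 0.0245), and in GAL-NMD2 by log2 0.75 (SE 0.23, limma adjusted p = 0.0254). The other rise within GAL-NMD2 was that of 5867_at, from 491 ± 120 to 781 ± 139 (log2 0.67, SE 0.20, limma adjusted p = 0.0205); it was named after its values were seen. In nmd2D 5867_at went from 433 ± 39.6 to 632 ± 95.5.

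By the array maker's naming, probe sets with no letter before _at were designed to be unique, whereas s and f mark probes common to several transcripts or to a family. The letters i, g and r are not read here as a measure of sharing. Of the 1094, 766 had no letter, 215 had f, 44 s, 38 i, 18 g and 13 r. The f probe sets were bright, with a median level of 9.21 on the log2 scale, against 5.85 for those with no letter. They were rarer among the 1-symbol probe sets, where 144 of 5639 had f and 5181 had no letter. At 60 min 164 of the 766 with no letter were lower in GAL-NMD2 (21.4%) and 1 higher, against 577 of 5181 with 1 symbol (11.1%) and 16 higher. Of the 215 with f, 12 were lower (5.58%) and 12 higher, against 17 lower (11.8%) and 2 higher of the 144 with f and 1 symbol. Among the s, i, g and r probe sets 8, 10, 5 and 2 were lower and 0 higher, against 11 of 200, 3 of 55, 3 of 52 and 0 of 7 lower with 1 symbol. The split by suffix depended on scaling. Of the 879 unnamed probe sets without f, 189 were lower and 1 higher as deposited. Median centring gave 97 lower and 16 higher, and quantile normalization 105 and 7. For the 215 with f these fits gave 7 lower and 91 higher, and 8 and 5. These shares were not tested against each other.

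The brightest class mixed both kinds. It held 121 probe sets with f, of which 0 were lower and 12 higher at 60 min (median log2 0.43), and 61 others, of which 5 were lower and 0 higher with a median of 0.06. In the middle class 40 of 108 without the letter f were lower (37.0%) and 1 of 15 with it. Of those higher without overlap, 3639_f_at differed most. At 60 min its arrays read 1361.4, 1118.8, 1526.5 and 1210.7 in GAL-NMD2, against 896.1, 705.7, 792 and 678.8, and the difference was log2 0.75 with SE 0.20 (adjusted p = 0.00697 by limma). All 4 GAL-NMD2 arrays lay above the nmd2D ones there, although at 0 min the strains overlapped at 907 ± 131 and 892 ± 178.

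**Figure D4:**
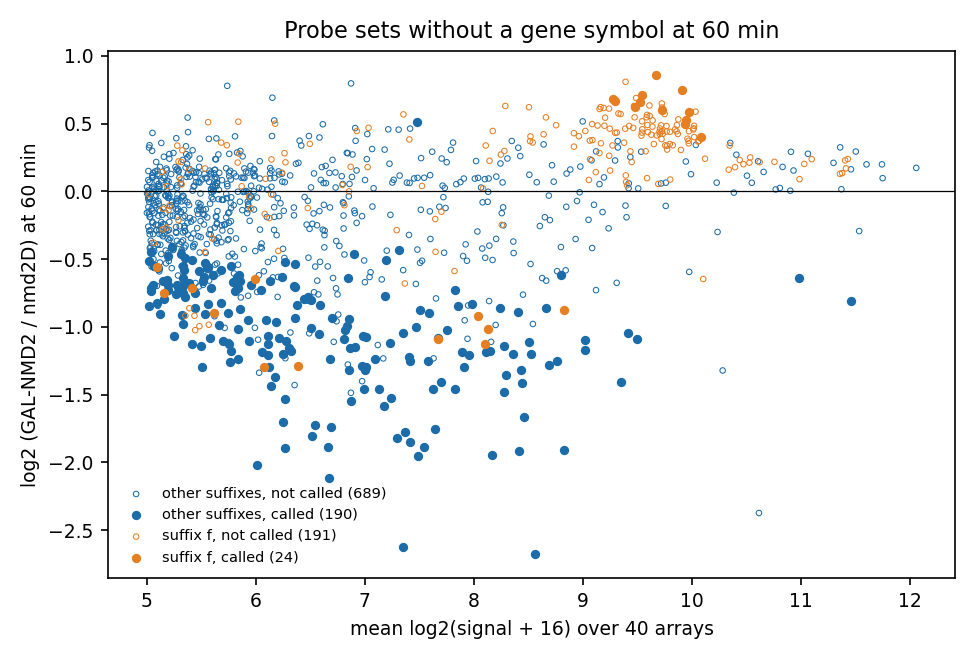
Each point is 1 of the 1094 unnamed probe sets, with mean log2(signal + 16) over 40 arrays on the horizontal axis and the log2 ratio of GAL-NMD2 to nmd2D at 60 min on the vertical axis. Filled points are called (24 with f, 190 with other suffixes); 12 of the 13 called higher are bright f probe sets (orange), and 189 of the 201 called lower have other suffixes (blue).

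The next higher ones at 60 min were 3653_f_at (log2 0.71, SE 0.21), 3518_f_at (log2 0.67, SE 0.21) and 3651_f_at (log2 0.66, SE 0.21), with limma adjusted p = 0.0184, adjusted p = 0.0262 and adjusted p = 0.0338. Of 20 alternative fits 5, 7 and 8 lost these calls, in that order, and 0 lost that of 3639_f_at. For 3653_f_at the arrays read 1026, 828, 1228.2 and 913 in GAL-NMD2 and 687.4, 569.3, 682.6 and 476.8 in nmd2D. The bright f probe sets moved together from array to array. After removing group means, the median correlation between pairs of the 121 bright f probe sets was 0.67 over the 40 arrays, against 0.10 between pairs of the 61 other bright unnamed ones and 0.02 between pairs of the 1068 bright ones with 1 symbol; the pairs share arrays and scaling. The 12 that were higher had a median of 0.78. How many were called depended on scaling and on single cultures. Of the 121 bright ones median centring gave 75 higher, quantile normalization 2 and the replicate block 39. Over all 215 with f these fits gave 91, 5 and 43. Also over all 215, without nmd2D replicate 1 there were 53 and without GAL-NMD2 replicate 2 there were 26, whereas without GAL-NMD2 replicates 1, 3 or 4 there were 4, 2 and 7 and without nmd2D replicates 2 or 4 there were 5 and 2.

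At 40 min the 6 higher probe sets were mostly others: 1 of them, 3406_f_at, was also higher at 60 min. It read 969.3, 976.6, 957.5 and 919.4 in GAL-NMD2 at 40 min, against 803.6, 652.4, 435.2 and 557.3 (log2 0.66 with SE 0.20, adjusted p = 0.0293 by limma). The bright probe set 9184_at read 2535.6, 2311.4, 2204.6 and 2183 against 1955.1, 1573.3, 1782.3 and 1093.7 (log2 0.55, SE 0.14, limma adjusted p = 0.00814). It was not called at 60 min, where its log2 difference was 0.29 (limma adjusted p = 0.226). The dim probe sets 10220_at and 8107_at were also higher at 40 min, by log2 0.71 and 0.51, with means in nmd2D of 26.8 ± 6.86 and 14.9 ± 5.33. Those nmd2D means were 40.7 and 19.4 at 0 min and 41.6 and 21.0 at 60 min. In GAL-NMD2 10220_at went from 44.0 at 0 min to 54.0 at 40 min, and 8107_at from 27.1 to 27.4. The strains did not overlap for 8107_at at 0 min already, at 25.9 to 28.8 against 10.4 to 24.9, a difference not called. The strains did not overlap in any of these 4 probe sets at 40 min. The call was lost for 3406_f_at in 7 of 20 alternative fits, for 9184_at in 2 of 20, for 10220_at in 7 of 19 and for 8107_at in 6 of 19.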

How the data were processed

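RNA of 40 samples was measured on an Affymetrix yeast array. Hot phenol was used for extraction and the target was biotinylated cRNA, per the labels' protocols. Each deposited intensity is a MAS5 signal, per the submitters' processing notes, which state no settings. The authors' intensities are linear, from 0 to 14594.5, and their mean without 2% at each end was 250.155 to 250.222 on every array, so each array carries one scaling. The table held 9335 probe sets, of which 60 controls were left out; 6504 had 1 symbol in the platform annotation, 328 several and 2443 were not listed.

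Values were taken as log2(intensity + 16). limma 3.58.1 in R 4.3.3 fitted 1 mean for each of 10 groups to the 7012 probe sets with a mean of at least 5 (lmFit, then eBayes with a trend). P-values were adjusted by Benjamini-Hochberg over all 7012 in each comparison, and an adjusted p under 0.05 was a call. Quoted SEs are of the fit and SDs are between the 4 replicates. The number of arrays limits the precision. The members, comparisons and lists were chosen with earlier results of these data known. Probe sets were named by rule: a call, no overlap of the 4 values on each side (for interactions, of the changes by replicate number), and size, with up to 12 falls for the interaction at 60 min and 4 in each direction elsewhere, plus the brightest and those at the floor. The annotation has no accession for unlisted probe sets, so they could not be split by any other identifier. The fit was also tested on simulated data.

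Replicate numbers come from the labels, which name no shared day. Deviations from group means correlated with r over 0.1 between same-numbered arrays in 51 of 52 pairs; the exception was replicate 2 of the strains at 20 min (r = 0.0726). The main fit did not use the numbers. They were taken to pair the samples in the fits with the replicate block, except between the strains at 20 min, and in the changes by replicate number. Counts with the replicate block stand beside the overall counts. Shares by suffix, overlaps and the adjusted p of named probe sets are from the main fit unless stated.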

Additional observations from a re-analysis of the deposited data

Results flagged for a closer look

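The change from 0 min differed between the strains by the test of the difference itself for 25 unnamed probe sets at 40 min (1.63% of all tested were called lower) and 69 at 60 min (4.22%), all 25 and 69 lower in GAL-NMD2. After median centring they were 10 and 27.

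Single arrays lay apart from the other 3 of their group in 16 of 310 groups examined, which are 31 probe sets in 10 groups each; by this measure chance marks about 1 group in 20. In GAL-NMD2, replicate 1 read 244.5 for 8112_at at 20 min against 392 to 410.7, 1099.9 for 3639_f_at at 20 min against 871.8 to 879.8, and 35.2 for 10437_at at 40 min against 82.4 to 93.4. Replicate 3 read 186.8 for 2772_at at 10 min against 87.1 to 95.8, and 133.2 for 5515_at at 60 min against 78.7 to 85.9. Replicate 3 also stood above the others for some f probe sets: 873.7 for 3653_f_at at 0 min against 656.3 to 687.5, 1063.2 at 10 min against 721.5 to 755.1, and 1091.6 for 3651_f_at at 10 min against 732.5 to 774.9. Replicate 4 read 605.7 for 3651_f_at at 20 min against 691.9 to 701.9.

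In nmd2D, replicate 2 read 443.4 for 2407_at at 0 min against 215.9 to 224.5. Replicate 3 read 460 at 10 min and 478.3 at 40 min for 5515_at, against 307.6 to 322 and 319.5 to 332.4. Replicate 4 read 16.2 for 10220_at at 10 min against 42.3 to 49.1, 282.3 for 9807_at at 0 min against 178.9 to 191.2, and 2736 for 8987_at at 60 min against 3685.1 to 3732.1. Replicate 1 read 176.6 for 11174_at at 60 min against 266.6 to 276.7.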

How the results depend on the processing

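Counts of unnamed probe sets called mostly kept their direction but not their size, and at 60 min median centring did not keep the direction between the strains. The cause was not tested. For the strains at 20 min (4), cyclic loess and quantile normalization each gave 1, median centring and fitting only the arrays compared 0, the replicate block 99 (89 lower and 10 higher, with numbers not taken to pair the strains at that time), and leaving out the single GAL-NMD2 array of replicate 2 at 20 min, chosen after seeing the data, 13. For the strains at 40 min (145) the replicate block gave 292, and median centring 120, of which 86 were lower and 34 higher. For the strains at 60 min (214) cyclic loess gave 139 (126 lower and 13 higher), quantile normalization 125 (113 and 12), and the replicate block 376. A floor of mean 6, which also tests fewer probe sets, gave 137. Median centring gave 211 at 60 min, but as 104 lower and 107 higher, against 201 lower and 13 higher in the main fit. Of the 107 higher, 91 were f probe sets, and the 879 without f were 97 lower and 16 higher. For the interaction at 40 min (25) median centring gave 10, the arrays compared 15 and the replicate block 128; at 60 min (69) cyclic loess gave 43, median centring 27, quantile normalization 39 and the replicate block 180. For the nmd2D response (2) the arrays compared gave 1 and the replicate block 13, and for GAL-NMD2 (190) 124 and 321. In GAL-NMD2 median centring gave 116 lower and 20 higher and quantile normalization 119 and 11, against 188 and 2 in the main fit. For f probe sets higher at 60 min (12) median centring gave 91, quantile normalization 5 and the replicate block 43.

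Leaving out 1 culture gave 0 to 14 for the strains at 20 min, 108 to 163 at 40 min and 164 to 271 at 60 min, 7 to 25 and 36 to 62 for the interactions at 40 and 60 min, 1 to 2 for nmd2D, 127 to 202 for GAL-NMD2 and 2 to 53 for f probe sets higher. Of 878 refits of the named differences, 751 kept their side of the threshold, 127 lost it and 0 changed sign. Dim probe sets near the floor have little room to fall.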
